A study of Mus musculus with 28 samples.

Results

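The RNAs described here are 8 long noncoding RNAs of the mouse hippocampus, listed as abundant neuronal transcripts, namely Meg3, Rian, Mirg, Malat1, Neat1, Miat, Snhg14 and Snhg11. They were taken by gene symbol from a gene table of 49341 entries, as RNAs known for staying in or near the nucleus, to be set against mRNAs that are carried into dendrites. All 8 passed the filter on low values, a normalized estimate of at least 10 in at least 3 libraries, which left 24911 genes for testing, and all 8 did so in every library of both layers. The tissue came from 3 adult male C57BL/6J mice of the Amigo2-EGFP reporter line, 6 to 8 weeks old and from separate litters, so each replicate is an animal (mice 492, 496 and 502). From 8 µm sections of each hippocampus, laser capture collected the layer of neuronal cell bodies and the layer of their dendrites in the subregions CA1, CA2 and CA3 and in the dentate gyrus (DG). This gave 8 groups of 3 libraries, and no group was treated. A dendritic layer is a piece of tissue and not a preparation of dendrites, so it also holds the nuclei and cytoplasm of glia, vessels and interneurons.

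Most mRNAs leave the nucleus after splicing, and in neurons a subset of them travels far into the dendrites for local translation. Many long noncoding RNAs stay behind: some are anchored to chromatin, some build nuclear bodies, and some are read through long genes whose introns are cut into small nucleolar RNAs (snoRNAs) or microRNAs. In neurons the imprinted domains around Dlk1 and Dio3 and around Snrpn and Ube3a are the best known sources of such transcripts. Meg3, Rian and Mirg lie in that order on the same strand of the first domain and are expressed from the maternal chromosome. Snhg14 belongs to the second and is expressed from the paternal chromosome.

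Values were log2 of the authors' normalized gene estimates, and every difference below is dendritic minus cell body on that log2 scale unless stated. The depth of each library is unknown here. The normalized estimates summed to 29.2 to 55.5 M in cell body libraries and 36.9 to 98.7 M in dendritic ones. The CA1 dendritic libraries of mice 492 and 496 stood highest, at 98.7 and 82.3 M. Mitochondrial genes held 4.21 to 9.08% of that sum in cell body libraries and 29.5 to 46.9% in dendritic ones. The labels list repeat libraries for 4 dendritic samples, CA2 and DG of mice 492 and 502, and the tables hold 1 column for each of these samples. Whether that column is the first library, the repeat or both merged is not stated, and 2 of the repeat entries carry the number of another mouse than their title. Cell body libraries were made from 5 ng of RNA and dendritic libraries from 1 ng, so layer and input cannot be told apart. The labelled layers differed in their defining mRNAs: of 15 neuronal mRNAs of the cell body 14 were lower in the dendritic layers, with a median of −1.31, and of 15 mRNAs named as dendritic 10 were higher and 5 lower, with a median of 1.97. Markers of other cell types also moved with the layer. All 12 astrocyte, all 12 oligodendrocyte, all 12 microglial and all 10 endothelial markers were higher in the dendritic layers, with median differences of 3.34, 2.99, 3.61 and 3.46, and 10 of 12 interneuron markers were higher, with a median of 1.75. None of these markers was at 0 throughout the cell body layers. Their part in the results below was not tested, except where a value is given.

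Between the layers the 8 RNAs went in different directions. Averaged over the 4 subregions, Neat1 and Snhg14 were higher in the dendritic layers (Snhg14 not when libraries were scaled to equal totals), Miat, Meg3, Snhg11 and Rian were lower, and Mirg and Malat1 did not pass the test (limma with mouse as a block, two-sided, adjusted p under 0.05 over all tested genes). Of all tested genes 45.2% passed, 19.8% as higher and 25.4% as lower, so the count of 6 in 8 is read against a background in which such differences are common. The median difference of the 8 was −0.54 and that of all tested genes −0.20. The 8 therefore spread over almost the whole range of the table, from the 4.38th percentile for Miat to the 97.8th for Neat1. Within single subregions CA1 had 5 of the 8 that passed (24.8% of all tested genes did), CA2 had 4 (28%), CA3 had 4 (22.1%) and DG had 4 (22.3%). The difference between layers was tested against that of the other 3 subregions as well: 1 of the 8 passed for CA1 (6.37% of all genes), 0 for CA2 (7.17%), 0 for CA3 (1.73%) and 1 for DG (4.29%). Comparing each cell body layer with the other 3, 2 passed for CA1 (5.98%), 1 for CA2 (8.97%), 1 for CA3 (7.04%) and 4 for DG (17.2%). Comparing each dendritic layer with the other 3, 1 passed for CA1 (13.2%), 0 for CA2 (2.57%), 1 for CA3 (2.16%) and 2 for DG (6.96%). In bulk tissue such as this, fewer cells of a type and less RNA per cell cannot be told apart.

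**Figure D1:**
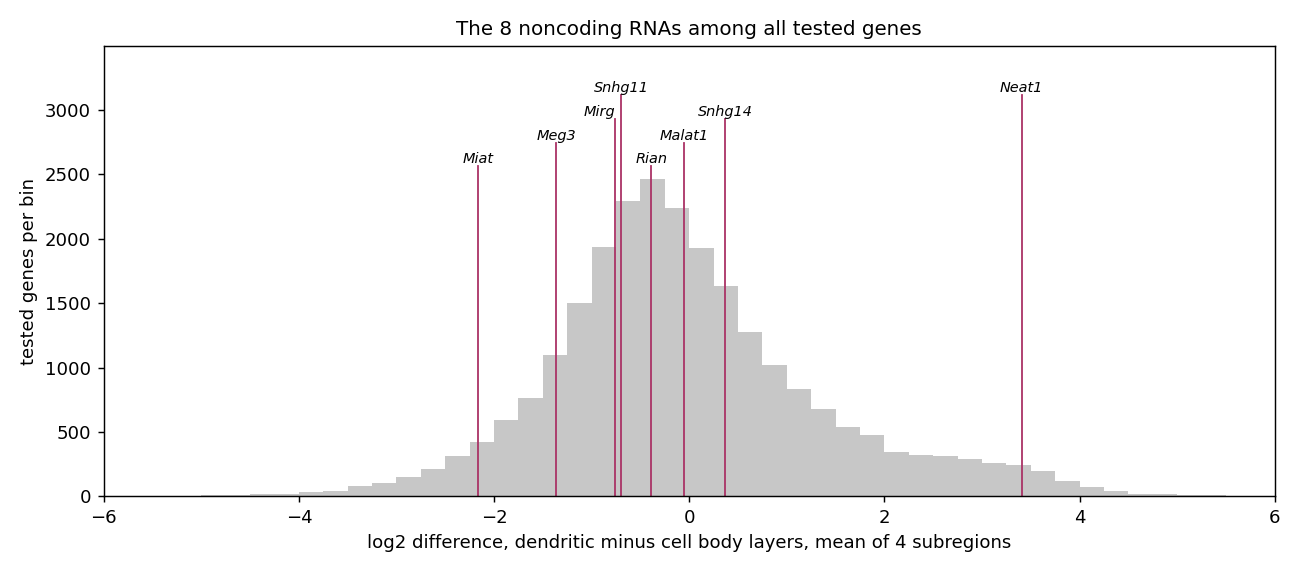
Histogram of the log2 difference between dendritic and cell body layers (mean of 4 subregions, horizontal axis) for all 24911 tested genes, with the number of genes per bin on the vertical axis and vertical lines at the 8 noncoding RNAs. Miat at −2.17 and Neat1 at 3.41 lie in opposite tails, and Malat1 at −0.05 lies close to 0.

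Expression per length separated the 8 further. Levels were divided by the length of the exon union in GENCODE, which 95.9% of tested genes had. Malat1 held rank 56 of 23890 genes in the cell body layers, with a median of 16600 normalized units per kb, and rank 58 in the dendritic layers, with 15400 per kb. Meg3 and Snhg11 followed in the cell body layers, at 1440 and 1310 per kb, or the 95.4th and 94.9th percentile. By this measure the word abundant was not borne out for 2 of the 8. Neat1 stood at the 35.1st percentile in the cell body layers, with 11.6 per kb against 34.8 for the median gene, and at the 63.9th in the dendritic layers, with 111 per kb against 45.7. Mirg stood at the 57.0th percentile in the cell body layers, with 61.1 per kb, and at the 44.9th in the dendritic layers. The length used for Neat1 was 20771 nt, that of its long form. Its short form of 3004 nt had median log2 values of 6.91 in cell body and 10.23 in dendritic layers. The long form had 6.98 and 9.59, so the standing of Neat1 depends on the length used.

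**Figure D2:**
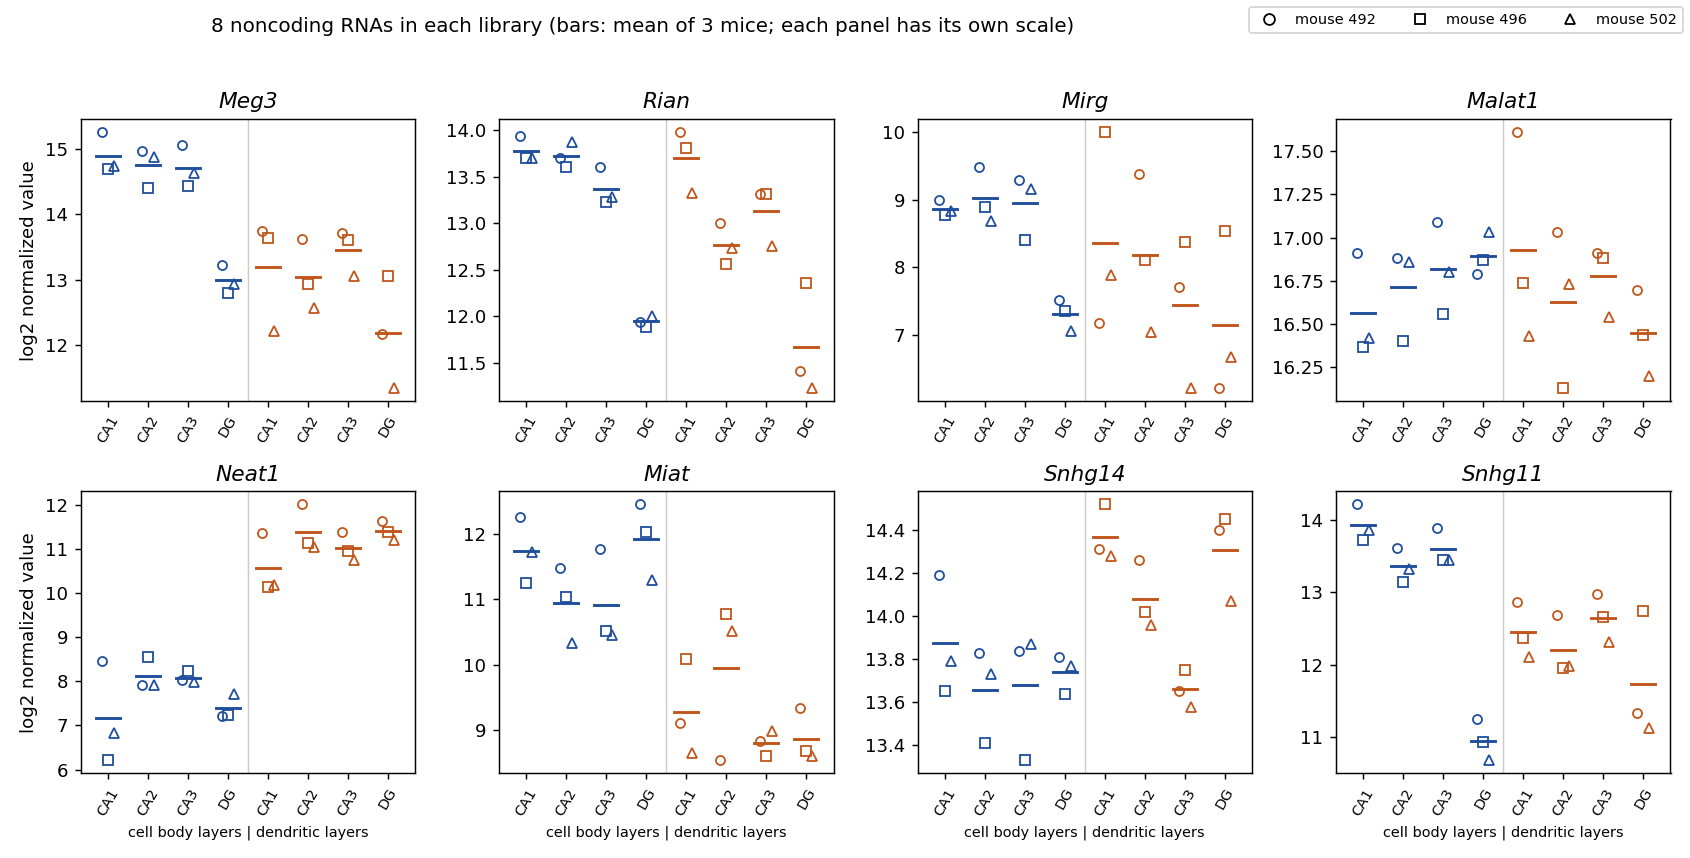
Log2 normalized value (vertical axis, a separate scale in each panel) of the 8 RNAs in each of the 24 libraries, by subregion, with cell body layers in blue on the left and dendritic layers in orange on the right. Symbols mark the 3 mice and bars the mean of each group; the layers do not overlap for Neat1 and overlap for the other 7.

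Meg3, a maternally expressed RNA that associates with chromatin, was lower in the dendritic layers. It ranged from 12.80 to 15.26 with a median of 14.66 over the 12 cell body libraries, and from 11.34 to 13.74 with a median of 13.06 over the 12 dendritic ones. The ranges overlapped because of the dentate gyrus, whose cell body libraries were as low as the dendritic libraries of the other subregions. The difference was −1.36 ± 0.148 (SE, n = 3 mice), or 2.57-fold, adjusted p = 3.49e-08, and it was negative in 11 of 12 within-mouse pairs. In CA1 the cell body values were 15.26, 14.69 and 14.74 in mice 492, 496 and 502, and the dendritic values 13.74, 13.64 and 12.22. These did not overlap, and the difference of −1.69 ± 0.297 passed the test (adjusted p = 1e-04). CA2 and CA3 gave −1.71 and −1.25, and both passed, CA3 not without mouse 492 (−1.21, adjusted p = 0.0579). In the dentate gyrus the cell body values were 13.23, 12.80 and 12.94 and the dendritic values 12.17, 13.06 and 11.34. Mouse 496 went against the other 2 there, and the difference of −0.80 ± 0.297 did not pass (adjusted p = 0.0566). The difference in the dentate gyrus was not shown to depart from that of the other 3 subregions (0.76 ± 0.343, adjusted p = 0.302).

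Among cell body layers, Meg3, Rian and Mirg were all lowest in the dentate gyrus (below). The promoter of Meg3 is shown because these RNAs are thought to be read from it as a unit. It is RefSeq sequence of chr12:109540746-109541045, plus strand of GRCm38.p6, from 250 bases before to 50 after the annotated start. Capitals mark CCAAT, TGACGTCA (the cAMP response element, a palindrome) and TATAAA, the last found on both strands in overlapping positions.
Meg3 promoter: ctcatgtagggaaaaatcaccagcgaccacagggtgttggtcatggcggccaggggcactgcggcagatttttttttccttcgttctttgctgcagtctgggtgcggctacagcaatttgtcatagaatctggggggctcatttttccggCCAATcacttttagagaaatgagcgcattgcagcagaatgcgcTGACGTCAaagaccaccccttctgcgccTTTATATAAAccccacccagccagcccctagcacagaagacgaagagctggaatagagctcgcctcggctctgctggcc
TGACGTCA begins 57 bases and TATAAA 25 bases before the start. Searched on both strands, TGACGTCA occurred in 1.79%, TATAAA in 13.6% and CCAAT in 37.4% of 32851 promoter windows of this length. None of the windows listed for Rian, Mirg, Malat1, Miat, Snhg14 or Snhg11 held TGACGTCA or TATAAA. Meg3 itself has another listed window, chr12:109545148-109545447, which held none of the marked motifs. Transcript Meg3-209 starts within that window.

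Rian, whose introns carry C/D box snoRNAs, spans chr12:109603940-109661716 downstream of Meg3, which spans chr12:109541001-109571726 (both GRCm38, plus strand). Its cell body libraries ran from 11.89 to 13.94 with a median of 13.61, and its dendritic libraries from 11.23 to 13.98 with a median of 12.88. The ranges overlapped almost fully, and 8 of 12 pairs were lower in the dendritic layer. The mean difference of −0.39 ± 0.111, or 1.31-fold, passed (adjusted p = 0.00591), but it was −0.23 without mouse 502 (adjusted p = 0.196) and −0.26 without the 4 dendritic samples that have a repeat library (adjusted p = 0.0871). CA2 was the subregion that passed on its own. There the cell body values were 13.70, 13.61 and 13.87 and the dendritic values 13, 12.56 and 12.74, with no overlap and a difference of −0.96 ± 0.222 (adjusted p = 0.00173), which quantile normalization moved to −0.26 (adjusted p = 0.195). In CA1 the difference was −0.07 ± 0.222 (95% interval −0.53 to 0.39). The CA1 dendritic libraries held 13.98, 13.81 and 13.33, the highest Rian of any dendritic layer, 1.19 ± 0.181 above the mean of the other 3 (adjusted p = 7.81e-05). With mouse 502 as the remaining CA1 dendritic library, assumed to vary like the other groups, that difference was 0.93 (adjusted p = 0.134).

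Mirg, the host of a large microRNA cluster, spans chr12:109729764-109749460 (GRCm38, plus strand). Its dendritic values scattered widely: CA1 gave 7.18, 10 and 7.88 in the 3 mice and DG gave 6.21, 8.54 and 6.67, whereas the CA1 cell body values were 9, 8.77 and 8.83. Mouse 496 was the highest in both dendritic groups. The mean difference was −0.76 ± 0.319 with a 95% interval of −1.42 to −0.10, adjusted p = 0.056, and no subregion passed; without mouse 496 it was −1.34 (adjusted p = 0.00569). The Mirg span holds 26 mature microRNAs in the RefSeq table, Rian 6 and Meg3 3. Mature microRNAs were not measured here. Those below are shown because Mirg is known through them; miR-134 acts on dendritic spines in rat hippocampal neurons. They are RefSeq sequences (GRCm38.p6, chromosome 12), with the seed, bases 2 to 8, in capitals.
mmu-miR-134-5p: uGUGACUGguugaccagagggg
mmu-miR-382-5p: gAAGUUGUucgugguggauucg
mmu-miR-154-5p: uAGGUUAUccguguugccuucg
mmu-miR-377-3p: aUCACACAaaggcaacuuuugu
mmu-miR-410-3p: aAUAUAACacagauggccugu
mmu-miR-453: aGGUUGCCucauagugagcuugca
mmu-miR-496a-5p: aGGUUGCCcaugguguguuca
The last 2 share their seed, and the other 5 have a seed found once among the 106 mature sequences from the start of Meg3 to the end of Mirg.

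Among cell body layers the 3 RNAs of this stretch were all lowest in the dentate gyrus. In its cell body layer Rian read 11.94, 11.89 and 12.01, against 13.23 to 13.94 in the other 9 cell body libraries, with no overlap. The difference from the mean of the other 3 cell body layers was −1.80 ± 0.242 for Meg3 (adjusted p = 4.37e-06), −1.68 ± 0.181 for Rian (adjusted p = 1.38e-07) and −1.64 ± 0.521 for Mirg (adjusted p = 0.0289). For Mirg that call was lost under 7 of the 13 alternatives, with adjusted p up to 0.238. Of all tested genes 13.7% were lower in this comparison, with 17.2% called in either direction. The neuronal mRNAs of the cell body were lower in the dentate gyrus as well, 14 of 15, with a median of −1.57, so the 3 RNAs were lower by about as much as that list. Over the 12 cell body libraries, centred on each mouse, Pearson's r between the 3 RNAs was 0.92 to 0.99, and Snhg11 from another chromosome correlated with them at 0.94 to 0.99. These values rest largely on the low dentate gyrus libraries. Over the 12 dendritic libraries r was 0.85 between Meg3 and Rian, 0.40 between Meg3 and Mirg and 0.50 between Rian and Mirg. In the dendritic layers Rian and Meg3 were again lowest in the dentate gyrus, by −1.53 ± 0.181 (adjusted p = 3.5e-06) and −1.04 ± 0.242 (adjusted p = 0.00742), against 5.60% of all genes lower. For Meg3 this was −0.80 without mouse 492 (adjusted p = 0.29). Without the 4 samples with a repeat library, which include 2 of the 3 dentate gyrus dendritic libraries, neither passed, with Meg3 at −0.09 (adjusted p = 0.957) and Rian at −0.76 (adjusted p = 0.183).

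Malat1, a nuclear RNA of splicing speckles, did not differ between the layers by more than the spread among mice. Its cell body libraries ran from 16.37 to 17.09 with a median of 16.83, and its dendritic libraries from 16.13 to 17.61 with a median of 16.72, an almost complete overlap. The mean difference was −0.05 ± 0.0935, with a 95% interval of −0.25 to 0.14 and adjusted p = 0.69. Among the 4 subregions CA1 gave 0.36 ± 0.187, CA2 −0.08, CA3 −0.04 and DG −0.45 ± 0.187, and none passed. The mean turned on the scaling: −0.63 under quantile normalization (adjusted p = 1.92e-07), −0.55 when libraries were scaled to equal totals (adjusted p = 1.96e-08) and −0.03 with totals taken outside the mitochondrial genome (adjusted p = 0.763). The RNA is annotated at chr19:5795690-5802672 (GRCm38, minus strand). Its end is known for a genomically encoded run of A that folds into a triple helix in place of a poly(A) tail, followed by a tRNA-like piece that is cut off. Bases 6644 to 6755 of transcript Malat1-201 (GENCODE) are shown since this end sets the RNA apart from mRNAs, with its run of 12 A in capitals.
Malat1 end: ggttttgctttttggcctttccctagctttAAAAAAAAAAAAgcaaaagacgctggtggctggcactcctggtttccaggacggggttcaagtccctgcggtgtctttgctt

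Neat1, the scaffold of paraspeckles, was the only one of the 8 with no overlap between the layers. It read 6.21 to 8.56 with a median of 7.91 in the 12 cell body libraries and 10.14 to 12.01 with a median of 11.17 in the 12 dendritic ones. All 12 within-mouse pairs were higher in the dendritic layer, by 2.57 to 4.41. Of all tested genes 6.63% had no overlap between the layers, 5.26% with the dendritic layers higher. The difference was 3.41 ± 0.196, or 10.6-fold (adjusted p = 2.99e-13), and each subregion passed, with CA1 at 3.39, CA2 at 3.26, CA3 at 2.94 and DG at 4.02. In DG the cell body values were 7.21, 7.24 and 7.71 and the dendritic values 11.62, 11.39 and 11.21. No subregion was shown to differ from the others (DG 0.82 ± 0.453, adjusted p = 0.451). Neat1 is annotated at chr19:5824708-5845478 (GRCm38, minus strand), next to Malat1.

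Whether Neat1 was neuronal here was not tested. Its difference lay within the range of the astrocyte (2.47 to 4.04), microglial (2.84 to 4.08) and endothelial markers (0.77 to 4.28). It lay above that of the oligodendrocyte (2.60 to 3.21) and interneuron markers (−1.93 to 3.29). The neuronal mRNAs of the cell body had a median of −1.31. Some mRNAs listed as neuronal were also higher, and Shank1 and Reln differed most in their lists. Of the 15 mRNAs named as dendritic 10 were higher, Shank1 by 3.00, and 5 lower. Of the 12 interneuron markers 10 were higher, Reln by 3.29, and 1 was lower. Of the 12 microglial markers P2ry12 differed by 4.08 and Csf1r by 3.65, of the 12 astrocyte markers Aqp4 by 4.02 and Slc1a2 by 3.26, and of the endothelial markers Flt1 by 3.44. Over libraries the mean log2 level of the astrocyte list was 9.97 to 10.92 in the cell body layers and 13.40 to 14.26 in the dendritic layers, and that of the microglial list 7.13 to 7.93 and 10.54 to 11.76. By mouse-centred Pearson correlation over the 24 libraries, the genes whose pattern was most like that of Neat1 were Mmrn2 (r = 0.978), Cobll1 (0.976) and Fam20a (0.975). The transcript table listed both Neat1 forms. The long form, Neat1-201 of 20771 nt, which is the one that builds paraspeckles, was higher by 2.54 ± 0.223 (adjusted p = 1.1e-08). The short form, Neat1-202 of 3004 nt, was higher by 3.30 ± 0.264 (adjusted p = 2.8e-09). The whole of the short form lies within the long one, so reads there are split by estimation, and the 2 forms were not shown to change unequally (adjusted p = 0.171). The proteins of paraspeckles did not follow Neat1. Of 12 such genes none was higher and 8 were lower, among them Matr3 (−1.32 ± 0.0769) and Hnrnpu (−0.56 ± 0.0797), with a median of −0.37 against −0.20 for all genes.

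**Figure D3:**
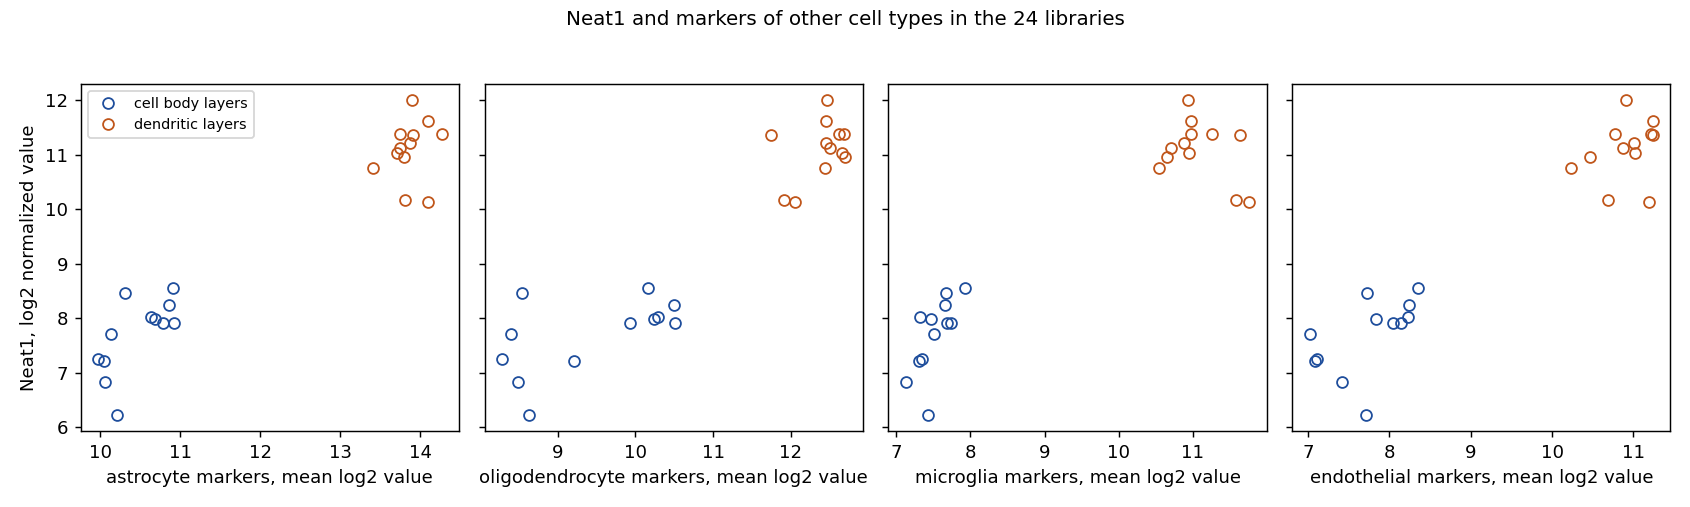
Log2 normalized value of Neat1 (vertical axis) against the mean log2 value of the astrocyte, oligodendrocyte, microglial and endothelial marker lists (horizontal axes) in 24 libraries, cell body layers in blue and dendritic layers in orange. In each panel the 2 layers form separate clouds, with Neat1 at or below 8.56 in one and at or above 10.14 in the other.

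Miat, also called Gomafu, a neuronal RNA held in a nuclear compartment of its own, fell most. Its cell body libraries ran from 10.33 to 12.46 with a median of 11.38, and its dendritic libraries from 8.53 to 10.77 with a median of 8.90. The overlap came from CA2 alone, where the cell body values were 11.48, 11.03 and 10.33 and the dendritic values 8.53, 10.77 and 10.52. Mouse 492 was lower by 2.95 there, mouse 496 by 0.27, and mouse 502 was higher by 0.18. The mean difference was −2.17 ± 0.240, or 4.49-fold (adjusted p = 4.83e-08). It passed in CA1 (−2.47 ± 0.480), CA3 (−2.12 ± 0.480) and DG (−3.07 ± 0.480), and not in CA2 (−1.01 ± 0.480, adjusted p = 0.125). In DG the cell body values were 12.46, 12.04 and 11.29 and the dendritic values 9.33, 8.67 and 8.59, well apart in each mouse. CA2 was not shown to differ from the other subregions (1.54 ± 0.554, adjusted p = 0.099). Unlike Meg3, Rian and Snhg11, Miat was not lower in the cell body layer of the dentate gyrus, where its mean was the highest of the 8 groups.

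Miat is annotated at chr5:112213228-112229395 (GRCm38, minus strand) and is known for copies of TACTAAC, the branch point sequence of yeast introns, through which it binds splicing factor 1. Both clusters of this repeat in transcript Miat-201 (GENCODE, bases 4528 to 4679 and 5176 to 5236) are shown, since they are the feature that defines the RNA, with each TACTAAC of the sense strand in capitals.
Miat repeat A: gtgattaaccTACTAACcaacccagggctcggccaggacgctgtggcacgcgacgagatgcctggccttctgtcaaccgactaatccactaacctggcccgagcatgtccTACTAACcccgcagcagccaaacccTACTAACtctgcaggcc
Miat repeat B: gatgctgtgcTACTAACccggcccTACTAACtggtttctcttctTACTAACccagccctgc
The 6 copies in Miat-201 fall 3 to a cluster. Of 131058 GENCODE transcripts of at least 300 nt, 5 transcripts of 4 genes, Miat included, had 3 or more copies within 300 nt on the sense strand. Rian and Neat1 had at most 1 in such a window, and Meg3, Mirg, Malat1, Snhg14 and Snhg11 had 0. Both listed Miat transcripts were lower in the dendritic layers, Miat-201 by −1.87 ± 0.179 and Miat-205 by −2.12 ± 0.276.

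Snhg14, the long paternal transcript that hosts the snoRNAs of the Prader-Willi region and runs antisense to Ube3a in neurons, was higher in the dendritic layers by a small amount at the level of the gene. Its cell body libraries ran from 13.33 to 14.19 with a median of 13.78, and its dendritic libraries from 13.58 to 14.52 with a median of 14.17. The ranges overlapped, and 10 of 12 pairs were higher. The difference of 0.37 ± 0.0821, or 1.29-fold, passed (adjusted p = 0.000682), but it was 0.21 without mouse 496 (adjusted p = 0.0589) and turned to −0.14 with libraries scaled to equal totals (adjusted p = 0.174). CA1 (0.50) and DG (0.57) passed, but equal totals turned them to −0.49 and −0.081, CA1 was lost with any of the 3 mice left out (adjusted p from 0.0627 to 0.23) and DG without mouse 492 or 496 (adjusted p = 0.139 and 0.088). CA2 (0.42, adjusted p = 0.0579) did not, nor did CA3 (−0.02 ± 0.164, adjusted p = 0.959). In CA3 the dendritic values of 13.65, 13.75 and 13.58 lay within the cell body values of 13.84, 13.33 and 13.87. The dendritic layer of CA3 was the lowest of the 4 for Snhg14, by −0.59 ± 0.134 (adjusted p = 0.016), a call that was lost when any mouse was left out, with adjusted p from 0.0597 to 0.267.

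The gene value of Snhg14 combined transcripts that went in opposite directions. GENCODE gives the gene a span of 667836 bases, chr7:59307924-59975759 (GRCm38, minus strand), and 7 of its transcripts were listed. Those at its start were lower in the dendritic layers. Snhg14-211, which covers the first 38388 bases, ran from 11.72 to 12.92 with a median of 12.59 in the cell body libraries and from 10.19 to 12.54 with a median of 11.58 in the dendritic ones, a difference of −1.16 ± 0.157 (adjusted p = 5.82e-06). Snhg14-209 within it was lower by −1.46 ± 0.214, and Snhg14-206, which lies 112891 to 205482 bases from the start, by −1.66 ± 0.205. Transcripts toward its far end were higher. Snhg14-210, which lies 564586 to 591162 bases from the start, ran from 11.14 to 12.08 with a median of 11.68 in the cell body libraries and from 11.67 to 13.27 with a median of 12.55 in the dendritic ones, a difference of 0.86 ± 0.0866 (adjusted p = 8.42e-08). Snhg14-208 before it was higher by 0.47 ± 0.0943. In the middle the order was not even: Snhg14-202, which spans 101010 to 356601 bases from the start, was higher by 1.02 ± 0.168, and Snhg14-203 inside that span gave −0.26 ± 0.155 (adjusted p = 0.205).

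The transcripts of Snhg14 changed unequally (limma diffSplice, adjusted p = 1.45e-20). The other 6 RNAs with more than 1 listed transcript did not pass, with Meg3 and Rian nearest (adjusted p = 0.0681 and 0.0723), and 2 of the 7 passed with mouse 496 left out, and likewise with the 2 highest CA1 dendritic libraries left out. Of 10025 genes so tested 19.7% passed. The opposite ends kept their sign in all 4 subregions: Snhg14-211 gave −1.18, −1.33, −0.80 and −1.31 in CA1, CA2, CA3 and DG, and Snhg14-210 gave 0.74, 1.13, 0.32 and 1.26. No exon of the 7 transcripts overlaps an exon of another annotated gene on the opposite strand, although the gene spans Ube3a. Whether counting used strand is not stated, and the abundance of overlapping transcripts is an estimate. Other scalings were not run on transcripts; scaling to totals shifts all transcripts of a library alike. Ube3a itself, the ubiquitin ligase lost in Angelman syndrome, was lower by 0.39 on the log2 scale (−0.39 ± 0.151, adjusted p = 0.04).

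**Figure D4:**
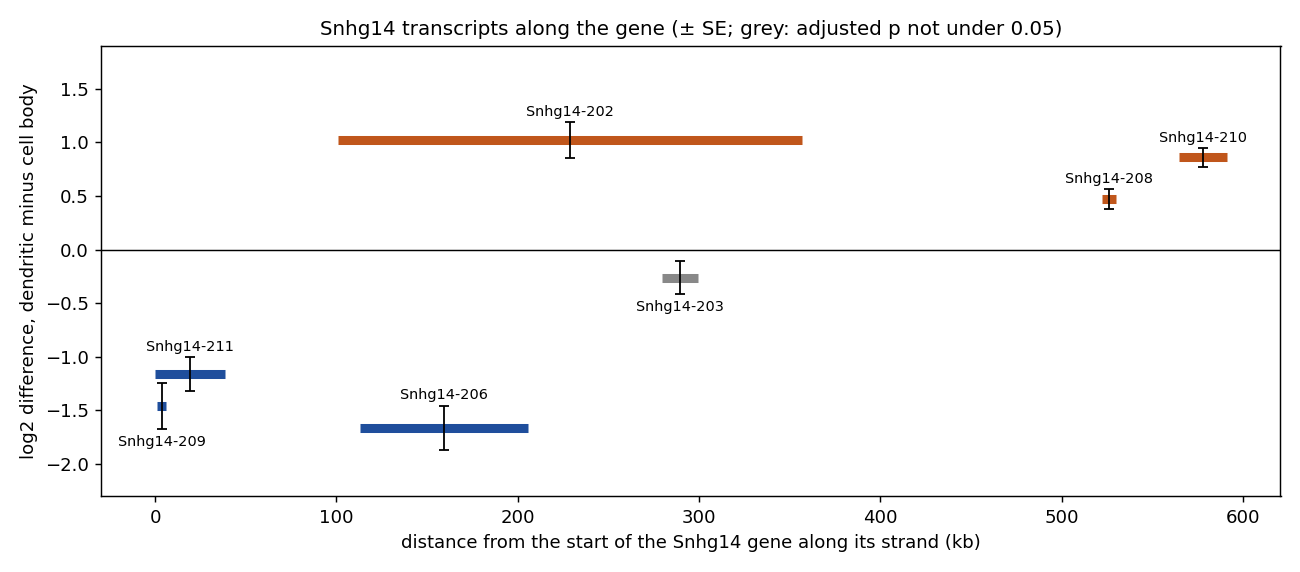
Log2 difference between dendritic and cell body layers (vertical axis, error bars SE) of the 7 listed Snhg14 transcripts, drawn as horizontal bars from their start to their end along the gene (horizontal axis, kb from the gene's start); blue is lower, orange higher and grey did not pass. The transcripts in the first 38 kb lie at −1.16 and −1.46 and those toward the far end at 0.47 and 0.86.

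Transcripts of the other RNAs were counted in the same way. All 3 Meg3 transcripts were lower, from −1.09 ± 0.125 for Meg3-209 to −2.89 ± 0.613 for Meg3-201, as were 7 of 8 Rian transcripts (Rian-204 gave −0.21, adjusted p = 0.756), 4 of 9 transcripts of Mirg, whose gene value did not pass, and the single Snhg11 transcript. Of these calls Mirg-212 was lost under 5 alternatives, Mirg-201, Rian-202 and Rian-213 under 3 each and Rian-209 under 1, and Rian-213 gave −0.28 without the 4 samples with a repeat library (adjusted p = 0.359). The called Mirg transcripts were low in the dendritic layers, with medians of 0.58 (Mirg-207, 4 libraries at 0), 2.60 (Mirg-204), 3.97 (Mirg-212) and 4.92 (Mirg-201). Mirg-212 shares 3796 of its 3797 bases with other listed transcripts. Malat1-201, the full-length form, did not pass (−0.08 ± 0.0637), and Malat1-203 of 485 nt, which lies wholly within it, was lower by −0.32 ± 0.110 (adjusted p = 0.0283), a call lost under 4 alternatives, among them without mouse 496 (−0.22, adjusted p = 0.243) and without mouse 502 (−0.26, adjusted p = 0.205). Of 47903 transcripts tested 38.6% passed, 25.8% as lower, with a median of −0.44. The 7 Rian transcripts that passed were lower by −0.51 to −1.90, and the gene value was −0.39. All genes had a median of −0.20 and all transcripts −0.44, so gene and transcript values are not directly comparable.

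Snhg11, which hosts 2 snoRNAs and which GENCODE annotates as protein coding, at chr2:158375638-158386145 (GRCm38, plus strand), passed the test of a difference between layers that changes with the subregion. Others of the 8 did not pass it, Rian and Miat in CA2 being nearest (adjusted p = 0.0745 and 0.099), but some passed under alternatives. In CA1 the cell body values were 14.22, 13.73 and 13.86 and the dendritic values 12.87, 12.37 and 12.11, so every cell body library was above every dendritic one. The differences there, in CA2 and in CA3 were −1.49 ± 0.270, −1.16 ± 0.270 and −0.94 ± 0.270, and all passed. Without mouse 502 the CA2 and CA3 calls were lost (adjusted p = 0.0677 and 0.167), and without mouse 492 that of CA3 (adjusted p = 0.0684). Quantile normalization moved them to −0.52 (adjusted p = 0.0893) and −0.60 (adjusted p = 0.0576), and limma without trend and robust ended the CA3 call (adjusted p = 0.0548). In DG the order turned. Its cell body values were 11.25, 10.93 and 10.68 and its dendritic values 11.34, 12.74 and 11.13, a difference of 0.79 ± 0.270 (adjusted p = 0.038). All 3 mice were higher in the dendritic layer there, by 0.09, 1.81 and 0.46, but the call was lost under 6 of the 13 alternatives, among them without mouse 496 (0.27, adjusted p = 0.44), without mouse 502 (0.95, adjusted p = 0.125), without the mouse block (adjusted p = 0.0726) and with equal totals (0.14, adjusted p = 0.679). Against the mean of the other 3 subregions the difference in DG was larger by 1.98 ± 0.312 (adjusted p = 0.000168), where 2.99% of all tested genes were called higher and 4.29% in either direction. That call held under all 13 alternatives. In CA1 the difference was below that of the other 3, by −1.05 ± 0.312 (adjusted p = 0.0441), but this call was lost with any of the 3 mice left out, with adjusted p from 0.0532 to 0.212, and without the mouse block (adjusted p = 0.0861).

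The turn in DG came with a very low level in its cell body layer. Snhg11 was lower there than in the other 3 cell body layers by −2.68 ± 0.221, or 6.40-fold (adjusted p = 1.47e-09), and stood at the 1.59th percentile of all tested genes in that comparison. It was higher than the others in CA1 (1.30 ± 0.221, adjusted p = 0.000235) and CA3 (0.84 ± 0.221, adjusted p = 0.0161), the latter not without mouse 492 or 502 (adjusted p = 0.141 and 0.206). Between dendritic layers DG was the lowest by −0.70 ± 0.221, which did not pass (adjusted p = 0.0576). Of the 15 neuronal mRNAs of the cell body 10 were lower in the DG dendritic layer, 1 was higher and 4 did not pass, with a list mean of 13.07 to 13.22 in the 3 cell body libraries and 11.86 to 12.93 in the 3 dendritic ones. Mouse 496 had the highest dendritic list mean, as it had the highest Snhg11. The list members above 0 between the DG layers were Gap43 (1.73) and Stmn2 (0.23). They were also low in the DG cell body layer, by −3.36 and −3.85 against the other 3. Uchl1 (−2.17) and Tubb3 (−2.06) were low there too but did not turn, at −1.32 and −0.22 between the DG layers. For Snhg11 and these genes both comparisons use the same DG cell body values, so they are not independent. The interneuron marker list was higher in the DG dendritic layer, at 9.82 to 10.56 against 8.64 to 8.93, and its part in the Snhg11 value was not tested. The genes most like Snhg11 over 24 libraries were Epb41l3 (r = 0.965), Sfxn3 (0.958) and Khdrbs3 (0.950).

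**Figure D5:**
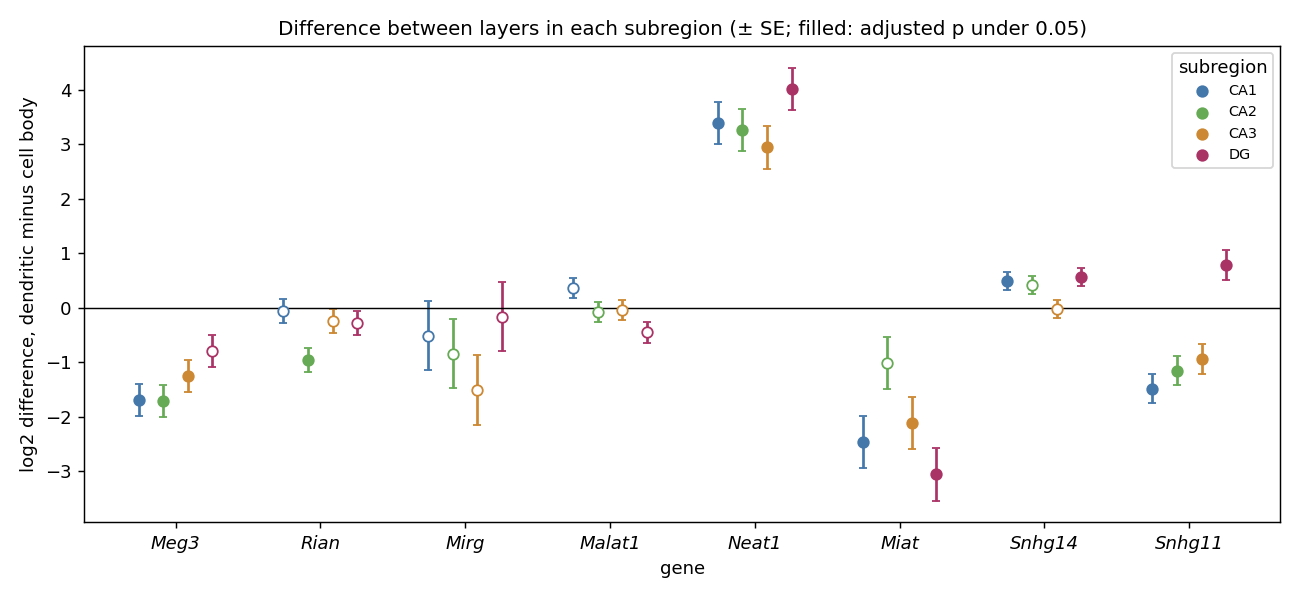
Log2 difference between dendritic and cell body layers (vertical axis, error bars SE, n = 3 mice) for each of the 8 RNAs in CA1, CA2, CA3 and DG; filled points passed at an adjusted p under 0.05 and open points did not. Neat1 is between 2.94 and 4.02 in all 4, and Snhg11 is at −1.49 in CA1 and 0.79 in DG.

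Ordered from the highest to the lowest group, each RNA gave 7 pairs of neighbouring groups, and 4 of these 56 pairs differed beyond their spread. Neighbours were picked as the groups closest in mean from these same values, which lowers the count. For Meg3 the step lay between the cell body layer of CA3 (mean 14.71) and the dendritic layer of CA3 (13.46), with CA1, CA2 and CA3 cell bodies above it (22.1% of all tested genes differed between these 2 groups). For Neat1 it lay between the dendritic layer of CA1 (10.56) and the cell body layer of CA2 (8.12), which is the boundary between all dendritic and all cell body groups (26.6% of all genes). For Rian it lay between the CA2 dendritic layer (12.77) and the DG cell body layer (11.95), with both DG groups below (22% of all genes). For Snhg11 it lay between the dendritic and the cell body layer of DG (11.74 and 10.95; 22.3% of all genes). No neighbouring groups differed beyond their spread for Mirg, Malat1, Miat or Snhg14. For the 52 pairs that did not pass, 1.14 to 29.6% of all genes did. Scaling moved this count to 13 to 16.

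Genes with the pattern most like each of the other RNAs were named by the same correlation. Cdh11 (r = 0.968), Disp2 (0.967) and App (0.965) were most like Meg3, and Mark4 (0.958), Reps2 (0.954) and Pcnx2 (0.954) most like Rian. Atp5s, Coq2 and Far1 were most like Mirg, at 0.905, 0.869 and 0.868, and Brpf1, Caly and Tmem150c most like Miat, at 0.849, 0.841 and 0.838. Malat1 had the least likeness to any gene, with Anp32a at 0.779, Hmgb1 at 0.772 and Cdk12 at 0.768. Among the genes most like Snhg14, Wsb1 (0.876), Grk4 (0.855) and Ddn (0.832), the last is a classical dendritic mRNA encoding dendrin. All libraries share the 3 mice and the layer split, so these values describe these libraries only.

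Set against mRNAs, the 8 RNAs did not form a group of their own. Camk2a, the kinase of postsynaptic densities, was higher in the dendritic layers by 2.53 ± 0.0587, Shank1 by 3.00 ± 0.0709, Map2 by 2.67 ± 0.0738 and Ppp1r9b by 2.56 ± 0.0706. The 15 mRNAs named as dendritic went both ways, 10 higher and 5 lower, from −3.33 for Bdnf to 3.00 for Shank1. Rtn1 (−1.95 ± 0.118), Uchl1 (−2.02 ± 0.124), Eno2 (−1.57 ± 0.103) and Syt1 (−1.38 ± 0.101) were among the neuronal cell body mRNAs that were lower. That list ran from −2.02 to −0.20, so Meg3 at −1.36 lay inside its range, Miat at −2.17 just below it and Malat1 at −0.05 just above it. No list was tested as a set.

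Other noncoding RNAs known from the nucleus also went both ways. Of 20 tested, 8 were higher, 3 lower and 9 did not pass, with a median of 0.31. Those higher included Dlx6os1 (2.49 ± 0.155), a transcript of the interneuron gene pair Dlx5 and Dlx6, Sox2ot (2.28 ± 0.174), which overlaps the glial and progenitor gene Sox2, and Pantr1 (1.77 ± 0.224). Mir124a-1hg, the host of the neuronal microRNA miR-124, was lower by −1.91 ± 0.217. Among 16 other snoRNA hosts 4 rose, 1 fell and 11 missed the threshold, with a median of 0.04. Gas5 was higher by 1.01 ± 0.179, Snhg18 by 2.66 ± 0.600 and Snhg8 by 0.93 ± 0.261, and Snhg15 was lower by −1.89 ± 0.577. Of 4 other noncoding RNAs, listed as cytoplasmic, Rn7s1 and Rn7s2 were both higher by 1.13 ± 0.180. These are near identical copies of the RNA of the signal recognition particle, between which reads cannot be divided, so their values are uncertain. Rmrp, the RNA of RNase MRP, was lower by −0.94 ± 0.133, and 2900097C17Rik gave 0.05 ± 0.083.

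Neighbours in the imprinted domains did not move as a block. The Dlk1-Dio3 domain had 6 other tested genes, of which 1 rose and 3 fell, with a median of −0.26. Begain, which encodes a protein of the postsynaptic density, was higher by 1.38 ± 0.106, the paternal genes Rtl1 and Dio3 were lower by −1.84 ± 0.529 and −1.71 ± 0.689, and Wars was lower by −0.43 ± 0.127. Dio3 was near the floor, with mean log2 values of 3.06 in cell body and 1.35 in dendritic layers (limma, adjusted p = 0.0455). Of 8 other genes of the Ube3a-Snrpn domain 3 were higher and 4 lower, with a median of −0.05. Among the higher genes Peg12 and Mkrn3 were near the floor, with mean log2 values of 0.73 and 2.57 in cell body layers. Their dendritic means were 2.27 and 4.59. Snrpn, an mRNA of a splicing protein that shares its start with the paternal transcript of Snhg14, was lower by −0.99 ± 0.0784 and Snurf, read from the same transcript, by −2.39 ± 0.757. Ndn was lower by −0.80 ± 0.108 and Atp10a higher by 3.45 ± 0.210. The direction at Snrpn and Snurf was that of the first Snhg14 transcripts. Of 19 genes for proteins of the nuclear speckles, where Malat1 resides, none was higher and 9 were lower, with a median of −0.35. Srsf11 (−0.53 ± 0.114), U2af2 (−0.49 ± 0.123), Srsf2 (−0.43 ± 0.109) and Srsf3 (−0.41 ± 0.106), all splicing factors, were the first of these.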

How the data were processed

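RNA from laser-captured hippocampal layers was sequenced as 100 bp read pairs after 16 cycles of PCR, with 50 M reads as the target, per the labels' protocols. The submitters' processing notes name cutadapt, STAR 2.5.1b, Salmon 0.9.1, featureCounts 1.5.1, limma 3.32.2, R 3.4.2 and the genome build mm10, and do not tie them to the tables. The deposited gene values are log2 normalized estimates and the transcript values log2 estimates, made by the authors. Both were read as holding a pseudocount of 1. The transcript values are not labelled as normalized. The depth of each library is unknown, so no value has a counting interval. An array table whose 12 columns match no sequenced sample was not used.

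Genes with an estimate of at least 10 in at least 3 of 24 libraries were fitted with limma 3.58.1 (R 4.3.3, trend and robust, statmod 1.5.0) on 8 groups, with mouse as a block (14 residual degrees of freedom). The block comes from the labels, which say that all 8 libraries from an animal went through preparation and sequencing as a set. Residuals from the group means correlated at a mean of 0.02 within a mouse and −0.07 between mice. Centring on each group by itself pulls the second value below 0, so these means do not show an effect of mouse. The 17 comparisons were adjusted by Benjamini-Hochberg over all 24911 tested genes. Transcripts were fitted likewise, and limma's diffSplice tested unequal change within a gene. The fit was tested on simulated data with known changes. All 34 transcripts of the 8 genes matched GENCODE M21 by version. Named genes were the up to 4 of each list with the smallest adjusted p, and for likeness the 3 with the highest correlation among genes with an estimate of at least 100; exceptions, such as Ube3a, Ddn, Gap43, Stmn2 and single markers, were chosen after their values were seen. The 8 RNAs and all lists were chosen with earlier results of these data known. Other scalings, filters, pseudocounts and left-out libraries were tried.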

Additional observations from a re-analysis of the deposited data

Results flagged for a closer look

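The difference of Snhg11 between dendritic and cell body layers depended on the subregion. In DG it exceeded the mean of the other 3 subregions by 1.98 ± 0.312 (limma interaction term, adjusted p = 0.000168), with all 3 mice above 0 in DG and all 9 pairs of the other subregions below 0. In CA1 it was below the mean of the other 3 by −1.05 ± 0.312 (adjusted p = 0.0441), a call lost under 7 of the 13 alternatives, among them with any of the 3 mice left out. Malat1 was higher in the dendritic layer of CA1 in all 3 mice (0.71, 0.37 and 0.01) and lower in that of DG in all 3 (−0.09, −0.43 and −0.84). With libraries scaled to equal totals Malat1 in CA1 turned to −0.62. The difference between these 2 subregions was 0.82 and was not itself tested; each against the mean of the other 3 subregions did not pass (adjusted p = 0.138 for CA1 and 0.218 for DG).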

How the results depend on the processing

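Averaged over subregions, Neat1 (2.90 to 3.52), Miat (−2.67 to −1.72), Meg3 (−1.87 to −1.04) and Snhg11 (−1.20 to −0.46) passed in the same direction under all 13 alternatives. Rian passed under 11 (−0.89 to −0.19), Snhg14 under 11 (−0.14 to 0.55), Mirg under 6 (−1.34 to −0.40) and Malat1 under 2 (−0.63 to 0.07). Scaling libraries to equal totals moved the median of all genes from −0.20 to −0.63; under it Snhg14 turned to −0.14 averaged over subregions, −0.49 in CA1 and −0.081 in DG, and Malat1 to −0.62 in CA1. Quantile normalization turned Malat1 to −0.74 in CA1, to 0.93 for CA2 against the other differences and to −0.70 for the CA3 cell body layer against the others. Totals outside the mitochondrial genome turned Malat1 to 0.43 in CA2 and 0.60 for CA2 against the other differences. Another 160 of 2647 values, which include counts and medians, changed sign or moved to or from 0. Those that were single tests passed neither before nor after. The cause of these turns was not tested.

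The remaining changes are in counts of the 8 RNAs that passed. Under quantile normalization, totals and totals outside the mitochondrial genome, neighbouring groups gave 14, 16 and 13 in place of 4. Under the same 3 settings the subregion-specific layer difference gave 2 in place of 1 for CA1 and DG, the CA2 cell body layer 2 in place of 1, and the CA1 dendritic layer 2 in place of 1. The CA2-specific difference gave 2 in place of 0 under quantile normalization and totals outside the mitochondrial genome. Quantile normalization gave 1 in place of 0 for the CA3-specific difference and 3 in place of 1 for the CA3 cell body layer. For the CA3 dendritic layer totals gave 3, totals outside the mitochondrial genome 2, and leaving out the CA1 dendritic libraries of mice 492 and 496 gave 2, in place of 1. For DG layers totals outside the mitochondrial genome gave 7 and limma without trend and robust 2 in place of 4. No filter, no replicate block, the missing CA1 libraries and limma without trend and robust each left 0 in place of 1 for the CA1-specific difference. The missing CA1 libraries also left 0 for the CA1 dendritic layer and gave 2 genes of unequal transcript change. Limma without trend and robust left 1 in place of 2 for the CA1 cell body layer, 0 for the CA2 and CA3 cell body layers and the CA3 dendritic layer, and 1 in place of 2 for the DG dendritic layer. Without the 4 samples that have a repeat library, CA2-specific differences numbered 3, DG-specific ones 2, the CA2 cell body layer 2, and the CA3 and DG dendritic layers 0. Leaving out a mouse gave ranges of 2 to 5 for CA3 layers, 0 to 0 for the CA1-specific and 0 to 1 for the CA2-specific difference, 1 to 2 for CA1, 0 to 1 for CA2 and 0 to 1 for CA3 cell body layers, 0 to 1 for CA2, 0 to 0 for CA3 and 1 to 3 for DG dendritic layers, 2 to 6 for neighbours and 1 to 2 for transcripts.

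Without the replicate block no call of the 8 RNAs averaged over subregions changed (Rian −0.39, adjusted p = 0.008); the calls of Snhg11 in DG and for the CA1-specific difference were lost (adjusted p = 0.0726 and 0.0861), as was that of Malat1-203 (adjusted p = 0.0516). The 3 mice of a group limit what can be told apart: the standard error of a difference within a subregion was 0.164 for Snhg14 and 0.638 for Mirg, so a change in Mirg would have to be large to pass.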
